A study of Mus musculus with 40 samples.

Results

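Resting induced regulatory T cells (iTregs) were compared with resting conventional CD4 T cells (Tconvs) by RNA-seq. The comparison takes 3 libraries of each state, 6 of the 40 samples of the series, chosen by their titles. Both come from mice on the C57BL/6 background that carry a fluorescent Foxp3 reporter. For iTregs, naive CD4+ cells that lacked the reporter and were CD44 low were sorted from 6-week-old mice. They were cultured for 4 days on 0.5 µg per ml anti-CD3 and 1 µg per ml anti-CD28 with 2 ng per ml TGF-β and 200 U per ml IL-2, sorted for GFP or RFP from the reporter, and left for 1 day in fresh medium with the same IL-2. Tconvs were sorted from spleens of Foxp3-GFP mice 2 to 4 months old, and the sources used here do not say whether those of these libraries were then kept in IL-2 for a day or gated for naive cells. The comparison therefore asks what the whole induction protocol and its rest leave changed. TGF-β, stimulation of the T cell receptor (TCR), time in culture, the sort on the reporter, age and possibly IL-2 all differ between the groups and cannot be told apart.

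TGF-β acting on a naive CD4 T cell during TCR and CD28 stimulation, with IL-2, turns on Foxp3, the transcription factor that defines regulatory T cells. The same stimulation drives a resting cell into growth and division, with a switch to glycolysis and a rise of lipid and nucleotide synthesis, while naive cells hold a quiescence program kept by factors such as Klf2, Tcf7 and Foxo1 and by IL-7. Regulatory T cells suppress other T cells and consume IL-2 through a high-affinity receptor whose alpha chain, Il2ra, is itself a target of STAT5.

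Values are normalized counts, a gene's reads divided by the size factor of its library as deposited. They are given for replicates 1, 2 and 3 in that order. The libraries held 10427000 to 14103874 reads on genes for iTregs and 10126877 to 11974028 for Tconvs, and 3 reads were worth 2.28 to 3.16 normalized counts. The protocol keeps no strand, so that reads of overlapping genes cannot be told apart. Besides genes for which such a share is given below, overlaps touch 30.5% of the exon bases of *Il2rg*, 26.7% of *Stat4*, 25.9% of *Ifng*, 23.4% of *Ebi3* and 22.8% of *Ube2c*. The iTreg libraries differed more among themselves than the Tconv libraries: the chi-square per gene between replicates was 4.96 to 16.4 in iTregs, with the higher values for pairs with replicate 3, and 3.01 to 4.16 in Tconvs. No source used here says that replicates came from separate animals or cultures, so the p-values measure the spread between these libraries, which may be technical. The 6 libraries were labelled as T cells and had *Cd3e* at 1989, 2281 and 1862 normalized counts in iTregs and 3489.6, 3463 and 3373 in Tconvs, with *Cd4* at 4231, 4505 and 5429 and 8729, 8818 and 8749.9. Since these are bulk samples, fewer cells of a type and less RNA per cell cannot be told apart.

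Of 11495 genes tested, 7314 differed between resting iTregs and resting Tconvs, 63.6% of all genes tested. A gene was called at an adjusted p below 0.05 by limma (Benjamini-Hochberg over all genes tested) and an absolute log2 difference above 0.5, on the scale of log2 of the normalized count plus 1, which understates the change of genes at low counts. In iTregs 3773 genes were higher (32.8%) and 3541 were lower (30.8%). The counts of list members called, given below, are to be read against these shares. The median log2 difference over all genes was 0.02, so the change was nearly balanced on the deposited scale. The sizes were not: 1336 genes were higher by over 4-fold against 754 lower, and 291 were higher by over 32-fold against 61 lower. The values of both groups did not overlap for 3741 of the genes called higher and 3502 of those called lower, and for 9248 of all genes tested (80.5%). Quantile normalization moved the median of all genes by -0.14 and gave 3308 genes higher and 4045 lower, and no gene called here took the opposite direction in any alternative tried.

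**Figure D1:**
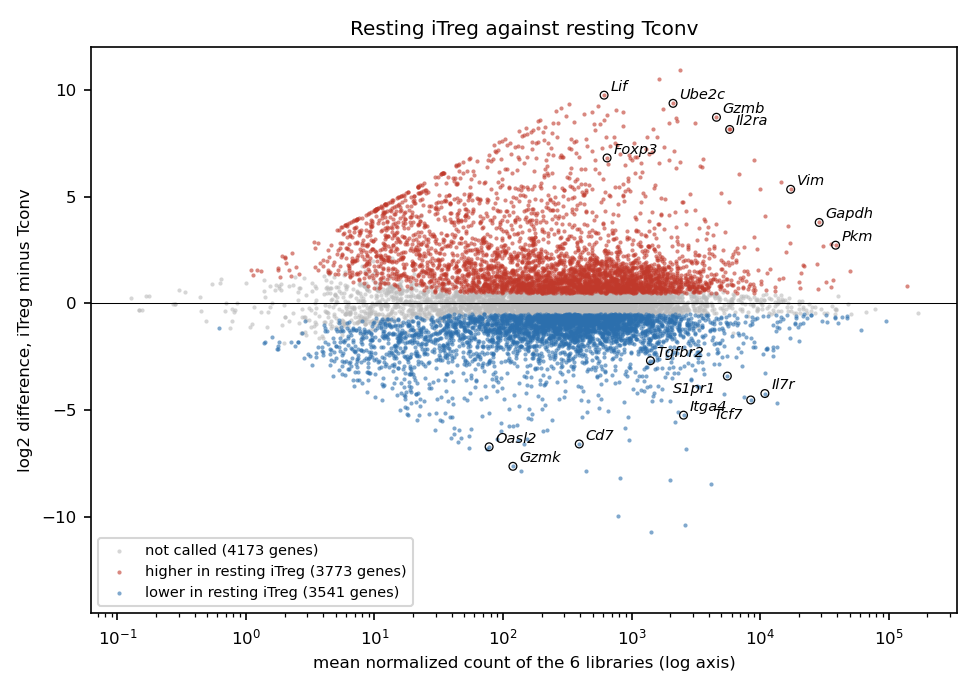
Log2 difference of resting iTregs minus resting Tconvs (y axis) against the mean normalized count of the 6 libraries (x axis, log scale), 1 point per gene tested; red genes were called higher in iTregs, blue genes lower and gray genes not called, and 8 tested genes at 0 in all 6 libraries are not drawn. The rises reach further from 0 than the falls, and *Tcf7*, *Il7r* and *S1pr1* fall from high counts.

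The largest rises among genes with a mean of at least 100 normalized counts in one group were not those of Treg genes. *Akr1c18*, an enzyme that inactivates progesterone, was at 4068, 4256 and 5969 normalized counts in iTregs and at 2.06, 0 and 3.51 in Tconvs. *Cyp11a1*, which starts steroid hormone synthesis by cutting the side chain of cholesterol, was at 3103, 3193 and 3467 against 1.03, 1.88 and 0.878. Both steroid enzymes were thus near the level of single reads in every Tconv library and among the well expressed genes of every iTreg library. *Lama5*, a laminin chain, and *Ak4*, a mitochondrial adenylate kinase, had no read in any Tconv library and means of 650.3 ± 85.7 and 563 ± 48.7 normalized counts in iTregs (SD, n = 3), at least 210-fold and 182-fold higher than the highest 3-read floor of a Tconv library. The other genes of the 10 largest rises were *Lif*, *Tnfrsf8*, *Jcad* and the mitotic genes *Ube2c*, *Bub1* and *Aurkb*, several of which are described below.

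Of the 10 largest falls, 5 were genes of the Ifi200 family, interferon-inducible DNA sensors and related nuclear proteins encoded side by side on chromosome 1. *Ifi208* went from 2756, 2725 and 3019 normalized counts in Tconvs to 0, 0 and 3.79 in iTregs, and *Ifi213* from 1539, 1501 and 1625 to 0, 3.03 and 0. *Ifi209* was the member with the most signal left, at 33.7, 38.3 and 71.3 in iTregs against 5155, 5054 and 5513 in Tconvs. *Ifi206* and *Ifi214* differed by -8.16 and -7.86 on the log2 scale. These 5 genes lie between 173468485 and 173698395 on chromosome 1 of GRCm38 and are near copies of each other, so that reads may be split among them. The sialyltransferase gene *St8sia6* was at 12.6, 12.1 and 11.4 against 4058, 3815 and 4143, and *Gzmk*, a granzyme of effector cells, had a single read in the 3 iTreg libraries and 202, 232 and 283 normalized counts in Tconvs. *Pde2a*, a phosphodiesterase, was at 0 in iTreg replicates 1 and 3 and at 59.5 in replicate 2, with 64.3% of its exon bases shared with another gene.

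The Treg identity genes were mostly higher in iTregs. Of 33 members tested, 25 were higher and 5 lower, with a median log2 difference of 2.31. *Foxp3* itself, on the X chromosome, was at 1178, 1338 and 1324 normalized counts in the iTreg libraries and at 11.3, 10.3 and 9.65 in the Tconv libraries, a log2 difference of 6.81 (standard error 0.09, adjusted p = 2.23e-16). This checks the labels and the sort, since the reporter was used to choose the cells, and 31.5% of the exon bases of *Foxp3* overlap other genes. *Il2ra*, the alpha chain of the IL-2 receptor, rose further, from 42.2, 38.5 and 38.6 to 9978, 11697 and 13005. *Lrrc32*, which displays latent TGF-β on the surface of Tregs, stood at 1381, 1718 and 1316 against 11.3, 5.63 and 5.27, and the orphan receptor gene *Gpr83* at 4397, 4129 and 4558 against 59.7, 42.2 and 60.6. No value of any of these genes in a Tconv library came near the lowest iTreg value.

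*Ctla4*, the inhibitory receptor for CD80 and CD86, was higher from a level already present in Tconvs, at 1913, 1979 and 2539 against 237, 209 and 218 normalized counts. The same held for *Tnfrsf18*, the GITR receptor, with a log2 difference of 2.53 (27.2% of its exon bases overlap other genes), for *Izumo1r*, the folate receptor of Tregs, with 3.54, and for *Ikzf4*, the Eos factor, with 2.30. *Itgae*, a TGF-β-induced integrin chain that binds E-cadherin, rose from 6.17, 8.44 and 7.90 to 128, 159 and 139.6. *Ebi3*, a subunit of IL-35, was higher by 4.72 on the log2 scale, and *Il10*, an inhibitory cytokine, by 3.75 from near 0.

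The 8 other members of the list, 5 lower and 3 not called, include the following, picked for not being higher. *Ikzf2*, which encodes Helios, was at 171, 141 and 189 in iTregs and 188, 199.8 and 196 in Tconvs, with overlapping values and a log2 difference of -0.23 (standard error 0.13, adjusted p = 0.12). *Nrp1*, the neuropilin carried by thymic Tregs, was lower in all 3 iTreg libraries, at 278, 328 and 354 against 649, 671 and 641. *Tigit* fell from 279, 304 and 296 to 40.0, 49.4 and 62.2, *Pdcd1*, which encodes PD-1, fell by 1.30 on the log2 scale and *Klrg1*, a receptor of effector Tregs, from 11.3, 20.6 and 17.6 to 1.05, 1.01 and 1.52. *Nt5e*, the CD73 ectonucleotidase, was not called (log2 difference 0.12, adjusted p = 0.302), whereas *Entpd1*, the CD39 enzyme that acts before it, was higher by 2.08.

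**Figure D2:**
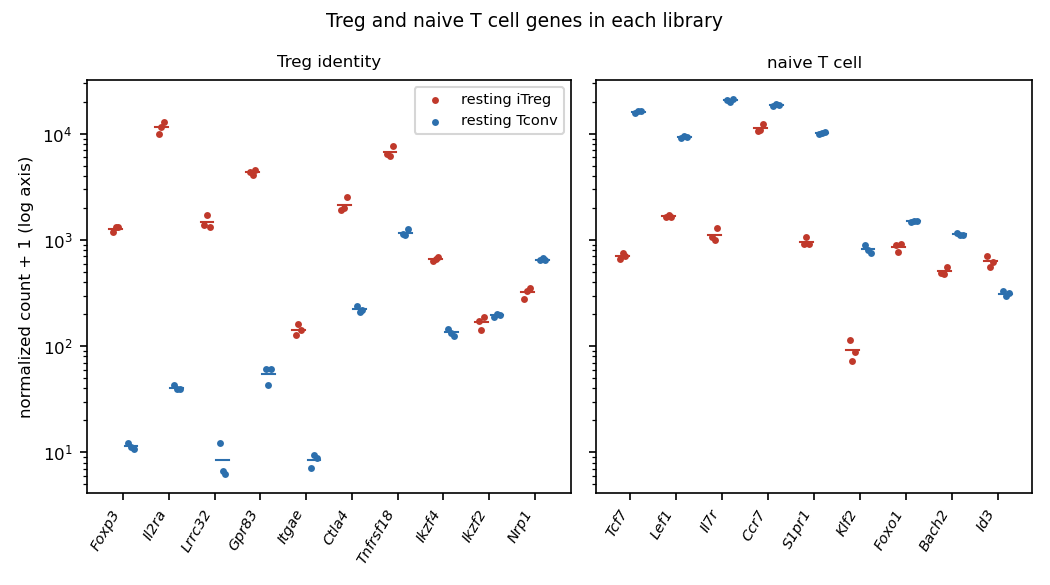
Normalized counts plus 1 (y axis, log scale) of Treg identity genes (left) and naive T cell genes (right) in each library; points are the 3 resting iTreg (red) and 3 resting Tconv (blue) libraries and short lines their means. *Ikzf2* overlaps between the groups, *Nrp1* is lower in iTregs, and of the naive genes drawn *Id3* alone is higher in iTregs.

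Genes of the TGF-β pathway itself were more often lower than higher, 14 (48.3%) against 7 (24.1%) of 29 tested, with a median log2 difference of -0.49. Of all genes tested 30.8% were lower and 32.8% higher. The receptor gene *Tgfbr2* was at 368, 353 and 417 normalized counts in iTregs and 2426, 2416 and 2437 in Tconvs, while *Tgfbr1*, the other receptor chain, had a log2 difference of 0.40 that missed the fold threshold. Of the SMAD genes, which carry the signal, *Smad4* was lower (log2 difference -1.97), and *Smad3* had a log2 difference of -0.52 that became -0.47 and lost its call without iTreg replicate 1. The inhibitors of the pathway were lower too. *Smad7*, the inhibitory SMAD, went from 645, 618 and 601 to 83.3, 71.6 and 76.6, the corepressor *Tgif1* from 1450.2, 1415 and 1539.5 to 102, 118 and 128, and *Ski* and *Skil* differed by -1.33 and -0.80. Among known target genes, *Pmepa1* was higher, at 231, 205 and 268 against 31.9, 17.8 and 22.8, as was *Itgae*, given above. *Smad7*, *Skil* and *Tgif1* are themselves genes that TGF-β induces, so that target genes moved in both directions.

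The IL-2 receptor and STAT5 target genes had 20 of 27 members higher and 4 lower, with a median log2 difference of 1.99. The receptor chains differed: *Il2ra* rose as given above, *Il2rb*, the beta chain, went from 965, 916 and 937 to 8757, 9948 and 10484, and *Il2rg*, the common gamma chain, was at 5041, 5857 and 8259.8 against 7221, 7664 and 7919 and was not called (log2 difference -0.28, adjusted p = 0.154). Of the kinases bound to them, *Jak3* was higher by 3.71 while *Jak1* had a log2 difference of -2.48, at 3802, 3654 and 4052 against 21531, 21047 and 21470 normalized counts. The feedback inhibitors that STAT5 induces were high: *Cish* was at 5400.5, 5643 and 5545 against 139.9, 172 and 156 and *Socs2* at 7022, 6730.1 and 6597 against 61.7, 98.5 and 73.7. *Lif*, a cytokine of the IL-6 family, had 2 reads in all Tconv libraries together and stood at 1138, 1202 and 1328 normalized counts in iTregs. *Gzmb*, granzyme B, reached 8813, 8693 and 9899 from 13.4, 24.4 and 27.2. *Bcl2*, the survival gene, was higher by 1.96, and *Bcl6*, which STAT5 represses, was lower at 19.0, 14.1 and 20.5 against 116, 130.4 and 147. Activation by IL-2 in the culture and by the preceding TCR stimulation cannot be told apart here.

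Naive and quiescence genes were mostly lower, with 32 of 38 lower and 5 higher and a median log2 difference of -2.08. *Tcf7*, the factor TCF1 of naive and memory cells, was at 667, 747 and 712 normalized counts in iTregs against 15701, 16434 and 16500 in Tconvs (log2 difference -4.51, standard error 0.07, adjusted p = 6.58e-16). *Il7r*, the IL-7 receptor alpha chain, was at 1069, 999 and 1291 against 20644, 20013 and 21395. *S1pr1*, the receptor that lets T cells leave lymphoid organs, was at 914, 1065 and 918 against 10066, 10105 and 10316, and *Klf2*, the factor that controls it, at 114, 71.6 and 86.5 against 899, 800.1 and 755. All 3 iTreg values of each of these genes lay far under the lowest Tconv value. *Lef1*, a partner of TCF1, had a log2 difference of -2.48, and the quiescence factors *Foxp1*, *Btg1*, *Klf3* and *Bach2* of -1.84, -2.07, -4.07 and -1.17. *Ccr9*, a gut homing receptor, fell from 112, 89.1 and 133 to 0, 1.01 and 2.28, and *Dapl1*, a marker of naive cells, from 470.0, 492 and 455 to 9.49, 12.1 and 8.35.

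Losses were not uniform within this list. *Ccr7*, the lymph node homing receptor, changed less, at 10730, 10814 and 12309 against 18351, 18969 and 18865 (log2 difference -0.73), and *Foxo1* differed by -0.80. *Id3*, an inhibitor of E proteins that is also kept by Tregs, was higher, at 699.8, 561 and 618 against 330.1, 293 and 313. *Igfbp4*, a binding protein of insulin-like growth factor, rose from 268, 297 and 248 to 9546, 10547 and 8940.4, and *Socs3* by 1.44.

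Cell cycle genes gave the most one-sided change of all lists. In the DNA replication and S phase list 58 of 60 genes were higher and none was lower, and in the list of mitosis and kinetochore genes 80 of 84 were higher and 1 was lower, with median log2 differences of 3.14 and 5.52. *Cdc6*, which loads the replicative helicase, was at 1313, 1283 and 1447 normalized counts in iTregs and 7.20, 9.38 and 5.27 in Tconvs, and *Mcm5*, a subunit of that helicase, at 6688, 6729 and 7318 against 428, 456 and 467. *Rrm2*, the regulated subunit of ribonucleotide reductase, was at 7656, 7093 and 6738 against 59.7, 64.7 and 68.5. *Pcna*, the sliding clamp, started higher and changed less, by 2.24. The exceptions were *Rpa1*, a protein that coats single-stranded DNA, at a log2 difference of -0.08, and *Ung*, whose difference of 1.38 had an adjusted p of 0.0524.

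The mitosis and kinetochore list summed to 127656 to 130917 normalized counts in iTregs and 17958 to 19217 in Tconvs, and several of its members were near the level of single reads in Tconvs. *Ube2c*, the ubiquitin enzyme of the anaphase-promoting complex, was at 4426, 4168 and 4009 against 4.11, 4.69 and 7.90. *Aurkb*, the Aurora B kinase, was at 3588, 3427 and 3478 against 4.11, 5.63 and 7.02, and *Cdk1*, the kinase that starts mitosis, at 2739, 2582 and 2375 against 17.5, 17.8 and 14.0. *Top2a*, the topoisomerase that untangles chromosomes, was at 11376, 11165 and 11830 against 33.9, 42.2 and 43.0, and the proliferation marker *Mki67* at 3898, 3447 and 4205 against 44.2, 28.1 and 36.9. *Bub1*, a checkpoint kinase, had 3 reads in the Tconv libraries together and 1072, 1068 and 1141 normalized counts in iTregs. Each of these genes was high in every iTreg library after the day of rest. The only member lower in iTregs was *Smc4*, a condensin subunit, at 4672, 4332 and 3510 against 8850, 8183 and 7500.

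Regulators of G1 moved in both directions, 16 of 30 higher (53.3%) and 7 lower (23.3%), against 32.8% and 30.8% of all genes. *Cdk6*, a G1 kinase, was higher by 4.33, *Myc* by 3.70 and the D-type cyclins *Ccnd2* and *Ccnd3* by 1.89 and 2.05. The CDK inhibitors parted: *Cdkn1a*, which encodes p21, rose from 17.5, 25.3 and 19.3 to 2991, 2898 and 2733, while *Cdkn1b*, the p27 inhibitor of quiescent T cells, fell from 2813, 2464 and 2871 to 828, 738 and 789.9. *Cdkn2c* was at 99.1, 83.7 and 105 against 80.2, 81.6 and 77.2 and was not called (adjusted p = 0.242). The pocket protein *Rb1*, which restrains E2F, had a log2 difference of -0.91, and *E2f1* was higher by 3.91.

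**Figure D3:**
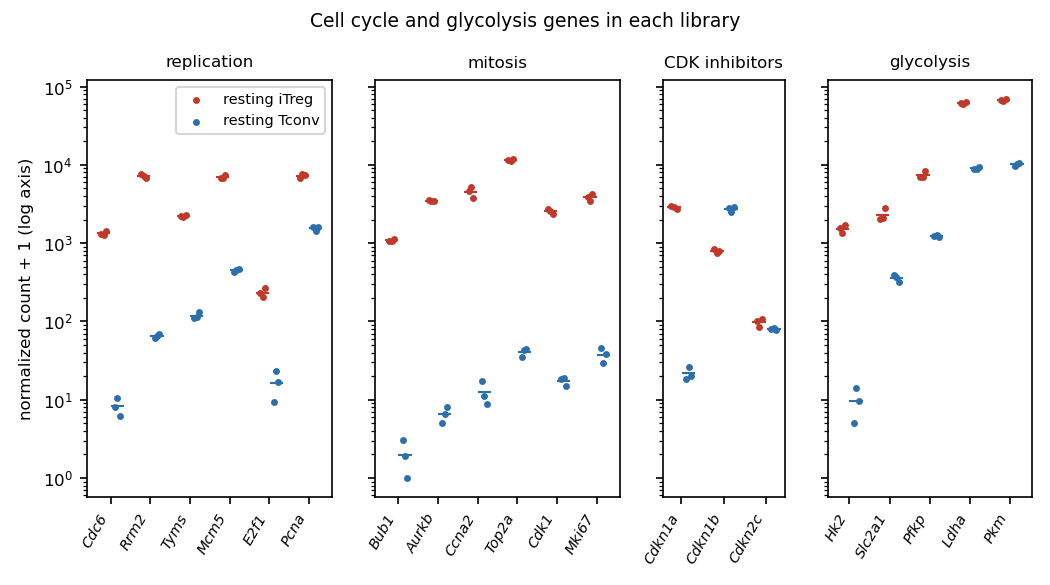
Normalized counts plus 1 (y axis, log scale) of genes of replication, mitosis, CDK inhibition and glycolysis in each library; points are the 3 resting iTreg (red) and 3 resting Tconv (blue) libraries and short lines their means. The mitotic genes lie far lower in Tconvs than in iTregs, and *Cdkn1a* and *Cdkn1b* move in opposite directions.

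Stretches of a few promoters are shown, since the elements known to time these genes can be read in them: E2F sites for replication genes, and the cell cycle genes homology region (CHR) for mitotic genes. RefSeq promoters of GRCm38.p6, from 250 bases before to 50 bases after a start, were searched on both strands. The E2F letters were TTTCCCGC, TTTCGCGC, TTTGCCGC and TTTGGCGC, and those of the CHR were TTTGAA and TTCGAA, and neither word set contains a word of the other. Of the promoters of replication genes called higher, 19 of 52 held an E2F match (36.5%), against 2.26% of all 32851 promoters and 4.01% of those of genes tested. Of the promoters of mitotic genes called higher, 51 of 77 held a CHR match (66.2%), against 19.2% of all promoters and 14.2% for genes tested, and 74.0% held the letters CCAAT, known as the box bound by NF-Y, against 37.4%. A match is only a run of letters and no evidence of binding. In the stretches below, written in the direction of the gene, capitals mark complete matches.
Cdc6, chr11:98907988-98908045, plus strand: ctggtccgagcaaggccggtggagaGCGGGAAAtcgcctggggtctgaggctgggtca
Mcm5, chr8:75109331-75109388, plus strand: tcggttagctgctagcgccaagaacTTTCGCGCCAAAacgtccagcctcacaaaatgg
Cdk1, chr10:69352953-69353008, minus strand: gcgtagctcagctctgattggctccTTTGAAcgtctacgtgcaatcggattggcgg
Top2a, chr11:99024338-99024393, minus strand: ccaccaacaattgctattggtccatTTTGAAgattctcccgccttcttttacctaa
Ube2c, chr2:164769890-164769915, plus strand: agggttgcaaTTCAAAcgcgggcggc
The stretch of *Ube2c*, next to its start site, is cut shorter than the rest. In *Mcm5* the capitals cover 2 overlapping matches, and *Top2a* had 4 CHR matches in its promoter, of which the first from its far end is shown.

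Glycolysis was raised nearly throughout, with 23 of 27 genes higher, 3 lower and a median log2 difference of 2.29. *Slc2a1*, a main glucose transporter of activated T cells, was at 2002, 2096 and 2836 normalized counts against 389.8, 366 and 317, and *Hk2*, the inducible hexokinase, at 1539, 1329 and 1699.6 against 4.11, 13.1 and 8.78. *Tpi1*, triose phosphate isomerase, was at 28379, 26274 and 31246 against 592, 531 and 535, the largest change of a glycolytic enzyme after *Hk2*. *Gapdh*, often used as a reference gene, was at 49373, 55724 and 56302 against 3914, 3895 and 3828, and *Pkm* and *Ldha*, which make pyruvate and lactate, were higher by 2.73 and 2.77. *Slc16a3*, the lactate exporter MCT4, had the largest rise of the list, from 15.4, 18.8 and 16.7 to 6006, 6339.7 and 6242. The genes lower in iTregs were *Pdk1* and *Pdk2*, kinases that inhibit pyruvate dehydrogenase, with -1.81 and -2.02, and *Ldhb*, with -0.81.

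Mitochondrial genes parted by genome. Of 73 nuclear genes for subunits of oxidative phosphorylation 57 were higher and 1 was lower, whereas of 13 genes encoded by the mitochondrial genome none was higher and 11 were lower. *Cox5a*, a nuclear subunit of cytochrome oxidase, was at 4331, 3997 and 3169 against 806, 866 and 917, and *Ndufc2*, of complex I, at 984, 876 and 762 against 208, 235 and 244. The mitochondrial *mt-Atp6* was at 30380, 35179 and 45849 against 88099, 79491 and 88334, and *mt-Nd4* had a log2 difference of -0.97. Mitochondrial genes took 1.77% to 2.63% of counts in iTregs and 3.95% to 4.22% in Tconvs. The part of this share in the lower values of single mitochondrial genes was not tested. In the tricarboxylic acid cycle 13 of 29 genes were higher (44.8%) and 1 was lower (3.45%), against 32.8% and 30.8% of all genes. The other 15 were not called. *Cs*, citrate synthase, was higher by 1.12, and *Pcx*, which refills the cycle from pyruvate, rose from 38.1, 35.6 and 29.0 to 1608, 1668 and 1781.

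Lipid synthesis was higher in 29 of 42 genes and lower in 1. *Fads2*, a desaturase, had no read in Tconvs and was at 360.4, 427 and 376 normalized counts in iTregs, at least 125-fold above the highest 3-read floor of a Tconv library. *Scd2*, another desaturase, rose from 72.0, 79.7 and 93.9 to 6809.6, 7107 and 7080, and *Fasn*, fatty acid synthase, from 696, 717 and 660.0 to 3811, 3814 and 3832. In the cholesterol branch *Fdps*, farnesyl diphosphate synthase, was higher by 2.75 (26.7% of its exon bases overlap other genes) and *Sqle*, squalene epoxidase, by 2.40. Of the factors that control them, *Srebf1* was higher by 1.38 and *Srebf2* was not called (0.10, adjusted p = 0.416). The only fall was that of *Mylip*, a ubiquitin ligase of sterol balance, at 52.7, 63.6 and 41.0 against 413, 529.9 and 366.

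Serine, one-carbon and nucleotide synthesis had 28 of 38 genes higher and 4 lower. *Psat1* and *Phgdh*, which make serine from a glycolytic intermediate, were at 4684, 4545 and 4984 against 187, 148 and 186 and at 7671, 7434 and 7715 against 1184, 1142 and 1169. *Mthfd2*, the mitochondrial folate enzyme of dividing cells, was higher by 2.03, *Tyms*, thymidylate synthase, by 4.23 and *Cad*, which starts pyrimidine synthesis, by 2.43.

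Amino acid transport and tRNA charging genes were higher in 25 of 37 cases and lower in 2. *Asns*, asparagine synthetase, was at 1167, 1124 and 1188 normalized counts against 46.3, 43.1 and 27.2, and *Chac1*, which breaks down glutathione, at 112, 87.8 and 91.8 against 5.14, 2.81 and 7.02. *Slc7a5*, the leucine transporter chain, rose from 46.3, 54.4 and 57.9 to 375, 434 and 366, while its partner *Slc3a2* had a log2 difference of 0.48 that missed the fold threshold. *Atf4*, the factor that induces many of these genes in the amino acid response, was not called, with -0.24. Its known composite element (CARE) was searched as TGATGNAA on both strands, and 9 of 21 promoters of the genes called higher held it (42.9%), against 3.97% of all promoters and 2.31% of those of genes tested. The stretches with a match are shown for *Asns*, *Chac1* and the alanine tRNA synthetase gene *Aars*, which was higher by 1.20, with the matched letters in capitals.
Asns, chr6:7693215-7693242, minus strand: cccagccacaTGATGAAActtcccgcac
Chac1, chr2:119351024-119351081, plus strand: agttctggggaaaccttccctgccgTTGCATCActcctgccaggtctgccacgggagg
Aars, chr8:111033705-111033762, plus strand: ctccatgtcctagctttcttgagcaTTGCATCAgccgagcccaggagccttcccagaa

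Machinery for making proteins rose in part. Of 65 genes of ribosome biogenesis 33 were higher (50.8%) and 5 lower (7.69%), against 32.8% and 30.8% of all genes. Among them *Nop56*, a nucleolar protein, was at 0.73 and *Ncl*, nucleolin, under the threshold at 0.35. The cytosolic ribosomal proteins were mostly not called, with 9 of 81 higher (11.1%) and 16 lower (19.8%), both under the shares of all genes. The lower count was 9, with 10 higher, without iTreg replicate 3 and 24 without iTreg replicate 1. *Rps27* had the largest fall, from 30735, 30797 and 30493 to 10424, 9788 and 7311, and *Rps27l*, a paralog that p53 induces, the largest rise, from 374, 330.2 and 397 to 2729.7, 2336 and 1974. Chaperones and genes of the unfolded protein response were higher in 30 of 46 cases and lower in 2, such as *Hsp90aa1* by 2.37 and *Hspa5*, the chaperone BiP, by 1.30. *Xbp1* was higher too, but its iTreg values of 2566, 4321 and 1500.1 spread widely against 318, 390.2 and 225 in Tconvs (log2 difference 3.07, standard error 0.66, adjusted p = 0.000631).

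Genes of proximal TCR and CD28 signaling were lower in 35 of 49 cases and higher in 5, although the median size was modest at -0.84. The receptor chains *Cd3d* and *Cd247* had log2 differences of -1.02 and -1.83, with 60.3% of the exon bases of *Cd247* overlapping other genes. *Txk*, a kinase of the TEC family, was at 139, 156 and 197 against 2425, 2426 and 2526 normalized counts, and *Plcg1*, which generates the calcium and diacylglycerol signals, at 889.5, 858 and 951 against 2164, 2117 and 2075. *Cd7*, a costimulatory surface protein, was almost lost, at 4.22, 11.1 and 7.59 against 772, 769 and 786. *Dgka*, the diacylglycerol kinase that dampens Ras signaling, was lower as well (-2.06), as was the phosphatase *Ptpn22* (-1.24). *Zap70*, *Lat* and *Cd5* did not pass the test, with log2 differences of 0.08, -0.04 and -0.02 and overlapping values. *Cd2*, an adhesion and costimulatory molecule, was higher, at 7389, 7523 and 8952 against 4314, 4215 and 4336.

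The study followed store-operated calcium entry (SOCE) and NFAT in these cells. It reported that early SOCE after TCR crosslinking was slightly higher in iTregs than in Tconvs. Later calcium waves and movement of NFAT into the nucleus were reported for both. The values below are RNA levels, which measure neither calcium entry nor protein. Of 45 genes for calcium entry, calcineurin and NFAT, 18 were lower (40.0%, against 30.8% of all genes) and 8 higher (17.8%, against 32.8%). *Stim1*, the sensor of calcium in the endoplasmic reticulum, was at 776, 837 and 706 normalized counts in iTregs and 2255, 2281 and 2251 in Tconvs (log2 difference -1.55, standard error 0.12, adjusted p = 1.47e-08). Of the channel genes, *Orai1* was at 103, 121 and 84.2 against 96.7, 116 and 118 and not called (-0.11, adjusted p = 0.583), *Orai2* was at 591, 609 and 539 against 3077, 3241 and 3169, and *Orai3* missed the fold threshold at 0.29. *Stim1* and *Orai2* thus did not overlap between groups, like 80.5% of all genes tested, while *Orai1* did. *Saraf*, which closes the channel, was lower as well, at 4268, 4233 and 4296 against 18047, 18229 and 18937. The IP3 receptors *Itpr1* and *Itpr2*, which empty the store, had log2 differences of -0.99 and -1.86.

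Calcineurin subunits and NFAT factors did not move together. *Ppp3ca*, a catalytic subunit, had a log2 difference of -1.35 and *Ppp3cc*, another, was higher by 1.69. *Nfatc2* was higher, at 832, 730.4 and 849 against 266, 265 and 279, *Nfatc3* was lower, at 481, 427 and 519.8 against 1456, 1474 and 1485, and *Nfatc1* had a log2 difference of -0.51 that became -0.49 and lost its call without iTreg replicate 1. *Dyrk2*, a kinase that counters NFAT activation, was at 143, 142 and 165 against 934, 998 and 994. *Atp2b4*, a calcium pump of the plasma membrane, rose from 40.1, 36.6 and 21.1 to 559.6, 552 and 661, while *Atp2b1*, another such pump, had a log2 difference of -0.66. The study reported by QPCR that transcription of *Ryr2*, a ryanodine receptor gene, was suppressed in iTregs and in thymic Tregs. Here *Ryr2* was at 2.11, 0 and 5.31 against 0, 0.938 and 0, at or near the 3-read floor in every library. No difference was detectable at this depth, so that these counts cannot address the QPCR result.

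AP-1, IRF and TCR-induced transcription factors were higher in 22 of 42 cases (52.4%) and lower in 16 (38.1%), against 32.8% and 30.8% of all genes. *Irf4*, which scales with TCR strength and partners with BATF, was at 2862, 3220.3 and 3661 normalized counts against 28.8, 33.8 and 37.7. *Batf3* had 2 reads in the Tconv libraries together and was at 577, 562 and 453 in iTregs, and *Atf3*, a stress factor, had none and was at 174, 195 and 216. *Irf8* rose from 12.3, 15.0 and 21.1 to 738, 899 and 613. *Nr4a1* and *Egr2*, induced within hours of TCR contact, were higher at low counts, by 1.80 and 2.84, and *Nfkb1* was higher by 1.28. On the other side were *Tox*, at 82.2, 103 and 118 against 544, 509 and 568, *Bach1*, at 48.5, 46.4 and 62.2 against 338, 325 and 335, and *Rel*, the c-Rel subunit of NF-κB, which Treg induction uses, at 163, 156 and 151 against 579, 483 and 606.

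Of 38 helper lineage factors and cytokine receptors tested, 17 were higher (44.7%) and 12 lower (31.6%), against 32.8% and 30.8% of all genes. The lineage factors *Gata3* and *Tbx21* were both higher, by 0.74 and 1.86, with *Gata3* at 1517, 1636 and 1681 against 952, 1004 and 938. *Il12rb1* and *Il12rb2*, the chains of the IL-12 receptor, rose from 38.1, 36.6 and 36.9 to 1250, 1244 and 1404 and from 19.5, 18.8 and 22.8 to 683, 823 and 911, with 40.0% of the exon bases of *Il12rb2* overlapping other genes. *Stat4*, which that receptor uses, had a log2 difference of -2.23. The IL-6 receptor chains were both lower, *Il6ra* at 195, 185 and 181 against 2362, 2365 and 2214 and *Il6st* with a log2 difference of -2.44, and so were *Il18r1* (-3.03) and *Il17ra* (-1.54). *Il4ra*, the IL-4 receptor chain, was higher, at 7351, 7701 and 7686 against 2398, 2502 and 2494.

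Effector cytokine genes were higher in 17 of 26 cases and lower in 3, though 15 further genes of the list had too few counts to be tested. *Il24* had 2 reads in the Tconv libraries together and was at 579.7, 600.3 and 673 normalized counts in iTregs. *Lta*, lymphotoxin alpha, was at 3248, 3454 and 3226 against 99.8, 109.7 and 114, *Tnf* at 506, 463 and 486 against 37.0, 25.3 and 43.0, and *Il21* at 219, 255 and 250.4 against 4.11, 5.63 and 4.39. *Ifng* was at 2.11, 3.03 and 10.6 against 1.03, 5.63 and 7.90, and no difference was detectable at this depth, and *Il4* and *Il13* were under the filter on low counts. *Ccl5*, a chemokine of memory and effector cells, fell from 751, 799 and 772 to 29.5, 36.3 and 32.6, and *Cd40lg*, the helper ligand for B cells, from 1001, 1043 and 1088 to 87.5, 108 and 112. *Il16*, a ligand of CD4, had a log2 difference of -2.01.

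Of 16 genes for granzymes, perforin and death ligands 7 were higher (43.8%) and 4 lower (25%), against 32.8% and 30.8% of all genes. *Gzmb* rose as given above, *Gzma* rose from 13.4, 15.9 and 16.7 to 813, 784 and 766, and *Gzmc* was higher at low counts, by 2.96. *Prf1*, the perforin that granzymes need to enter a target, was instead at 14.8, 11.1 and 8.35 against 227, 248 and 226, *Gzmk* was nearly gone, and *Fasl*, the death ligand, had a log2 difference of -2.24. *Nkg7* and *Ctsw*, a granule protein and a protease of cytotoxic cells, were higher by 2.35 and 2.12.

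Of 41 genes for chemokine and sphingosine receptors, integrins and selectin ligands, 14 were higher (34.1%, against 32.8% of all genes) and 18 lower (43.9%, against 30.8%). *Ccr8*, a receptor of tissue Tregs, was at 1020.2, 1056 and 1058 against 1.03, 3.75 and 4.39 normalized counts, *Ccr4*, which guides cells to skin, at 2829.9, 2877 and 3122 against 81.2, 62.8 and 61.4, and *Fut7*, the fucosyltransferase that makes selectin ligands, at 672, 708 and 704 against 16.5, 29.1 and 18.4. *Itga4*, the alpha 4 integrin, fell from 5043, 4883 and 4906 to 120.2, 128 and 146, while its partners *Itgb1* and *Itgb7* had log2 differences of only -0.53 and -0.34, the second under the fold threshold. *Gpr183*, the oxysterol receptor EBI2, fell from 4357, 4246 and 4685 to 131, 118 and 139.6, and *Cxcr6* from 772, 702 and 883 to 32.7, 46.4 and 62.2. *Cxcr3* and *Cxcr4* were not called, at 0.08 and -0.06.

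Co-inhibitory and costimulatory receptors were higher in 13 of 37 cases (35.14%) and lower in 18 (48.65%), against 32.8% and 30.8% of all genes. Among the rises were TNF receptor family genes known to follow activation: *Tnfrsf8*, CD30, was at 1373, 1565 and 1579 against 3.09, 1.88 and 0.878, *Tnfrsf9*, 4-1BB, at 2154, 2210.4 and 2789 against 35.0, 31.9 and 29.8, and *Tnfrsf4*, OX40, at 3556, 3897 and 5058 against 204, 208 and 219. *Lag3* and *Icos* were higher by 3.73 and 2.25. *Tnfrsf26*, a receptor of the same family, went the other way, from 14203, 13853 and 14691 to 632, 586 and 857. *Cd96* and *Cd226*, which share ligands with TIGIT, had log2 differences of -2.83 and -1.52, and *Cd27*, a costimulatory receptor of naive cells, of -1.73. In the BCL2 family 7 of 15 genes were higher (46.7%) and 6 lower (40%), against 32.8% and 30.8% of all genes. Besides *Bcl2*, *Bcl2l1* was higher by 2.07, as were the death genes *Bax*, by 1.57, and *Pmaip1*, by 2.46, while *Bcl2l11*, the death gene BIM, had a log2 difference of -1.55 and the survival gene *Mcl1* of -0.66.

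S100, galectin, annexin and cytoskeletal genes of effector cells were higher in 24 of 36 cases and lower in 3. *Lgals1*, galectin 1, which Tregs use for suppression, was at 20801, 19263 and 17941 normalized counts against 436, 502 and 489. *Vim*, vimentin, was at 33940, 34920 and 32458 against 871, 817 and 807 and *Anxa2* at 11095, 10410 and 11386 against 416, 390.2 and 435. Both were thus well counted in every library of both groups, with a gap between groups far above the spread within them. *S100a4* was lower (-0.91), with 51.7% of its exon bases overlapping other genes, and *Anxa1* was not called, at 0.34.

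Interferon-stimulated genes did not move as one: of 60 tested, 23 were higher and 26 lower, with a median log2 difference of -0.27. These are 38.3% and 43.3% of the list, against 32.8% and 30.8% of all genes, and with at least 100 normalized counts required the direction of the median turned, to 0.18 with 23 higher and 20 lower. Among those higher, *Ifitm3*, a membrane protein that blocks virus entry, was at 739, 746 and 731 normalized counts in iTregs and 4.11, 6.57 and 3.51 in Tconvs, its neighbor *Ifitm2* was higher by 6.98 (40.9% of its exon bases overlap other genes), and the guanylate-binding protein genes *Gbp5* and *Gbp2* by 3.73 and 2.74. *Ly6a*, which encodes Sca-1, rose from 1865, 1714 and 2031 to 15113, 15799 and 16822. Among those lower, *Oasl2* was at 0, 0 and 2.28 in iTregs, 3 reads in all, and 145, 139 and 182 in Tconvs. *Ifit3* was at 2.11, 1.01 and 3.79 against 197, 187 and 187, *Ifit1* at 10.5, 9.08 and 7.59 against 161, 177 and 177 and *Rsad2*, viperin, at 2.11, 2.02 and 3.79 against 43.2, 34.7 and 36.0. *Irf7*, the factor that amplifies type I interferon, fell from 276, 275 and 305 to 8.43, 22.2 and 15.9. *Irf9*, a DNA-binding factor of the type I response, fell by 0.82 on the log2 scale, and the receptor chain *Ifnar1* had a log2 difference of -0.72. For none of the genes given here by library did the groups overlap, which also held for 80.5% of all genes tested.

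**Figure D4:**
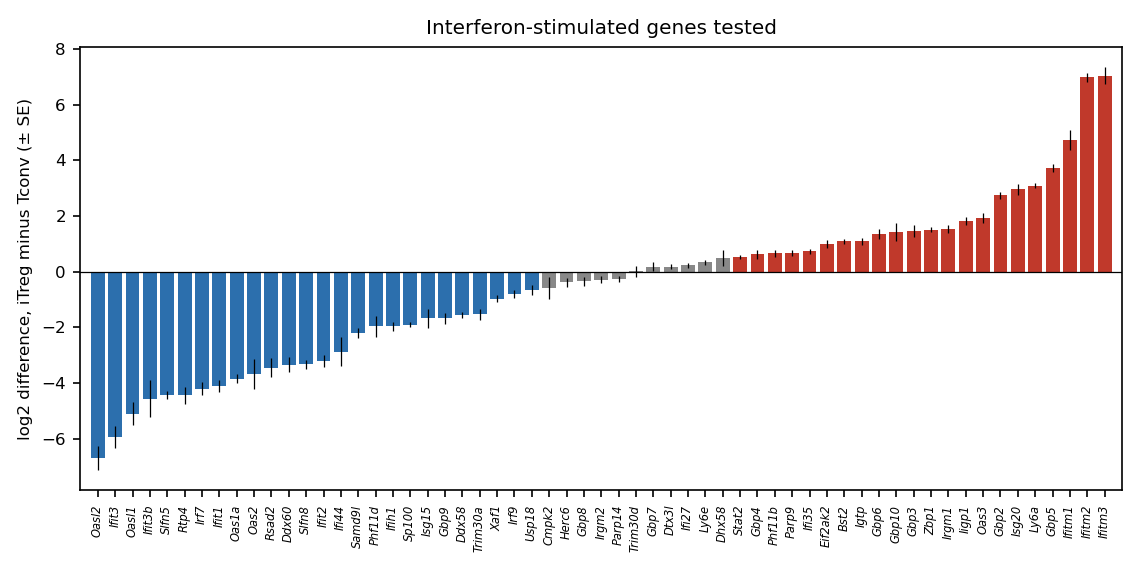
Log2 difference of resting iTregs minus resting Tconvs (y axis, bars, with standard errors of the limma fit as lines) for the interferon-stimulated genes tested, leaving out 1, in rising order (x axis); blue genes were called lower in iTregs, red genes higher and gray genes not called. The bars run from *Oasl2* at -6.71 to *Ifitm3* at 7.05.

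The interferon-stimulated response element (ISRE), a site of IRF9 complexes and of other IRF factors, was found in the promoters of both parts of the list. It was held by 12 of 18 promoters of members called higher (66.7%) and by 14 of 27 of members called lower (51.9%), against 3.44% of all promoters. The palindrome TTCNNNGAA, bound by STAT dimers, was held by 7 of the 18 (38.9%) and by 2 of the 27 (7.41%), against 8.30% of all promoters. An ISRE and a STAT match may share letters, and the sets are small and were not tested. Stretches with ISRE matches, in capitals, are shown for a pair of genes that were higher and for 3 that were lower in iTregs.
Gbp2, chr3:142620579-142620638, plus strand: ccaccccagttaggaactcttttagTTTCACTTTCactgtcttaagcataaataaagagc
Ifitm3, chr7:141010723-141010752, minus strand: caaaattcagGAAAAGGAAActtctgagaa
Ifit1, chr19:34640760-34640819, plus strand: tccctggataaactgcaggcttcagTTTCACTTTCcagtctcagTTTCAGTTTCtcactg
Ifit3, chr19:34583348-34583407, plus strand: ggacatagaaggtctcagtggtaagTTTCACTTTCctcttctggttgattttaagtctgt
Rsad2, chr12:26456538-26456597, minus strand: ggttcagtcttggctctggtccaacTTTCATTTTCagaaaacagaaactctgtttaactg
In *Ifitm3* the match lies just after the start site, and the stretch is cut short there. For *Cish*, which was high in iTregs and is a known target of STAT5, a match of the STAT palindrome at the start site is shown in the same way.
Cish, chr9:107296649-107296677, plus strand: ccgcccagttTTCCTGGAAagttcttgga

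Genes that maintain or write DNA methylation and chromatin marks were higher in 18 of 49 cases (36.7%) and lower in 19 (38.8%), near the 32.8% and 30.8% of all genes. *Uhrf1* and *Dnmt1*, which copy methylation onto new DNA, were at 4084, 4173 and 4582 against 21.6, 33.8 and 33.4 and at 3944, 4044 and 4299.9 against 863, 909 and 883, and *Ezh2*, the Polycomb methyltransferase, was higher by 2.40. Of the enzymes that remove methylation, *Tet3* was at 510.1, 572 and 473 against 1754, 1665 and 1496 and *Tet1* at 58.0, 46.4 and 53.9 against 144, 126 and 148, while *Tet2* was not called (0.02, adjusted p = 0.859). The de novo methyltransferase *Dnmt3a* was not called either, at 0.06. Of 8 GIMAP GTPases, which support the survival of resting lymphocytes, 6 were lower (75%, against 30.8% of all genes) and none higher. *Gimap9* was at 1196, 1119.8 and 1532 against 6479, 6427 and 6799.6 and *Gimap6* at 3666, 3784 and 4833 against 17941, 17316 and 18698. *Gimap1* had a log2 difference of -1.19. It lost its call whenever 1 library was left out (adjusted p by limma 0.0806 to 0.0914), which left 5 lower. The GIMAP genes lie side by side and resemble each other, so that reads may be shared among them.

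**Figure D5:**
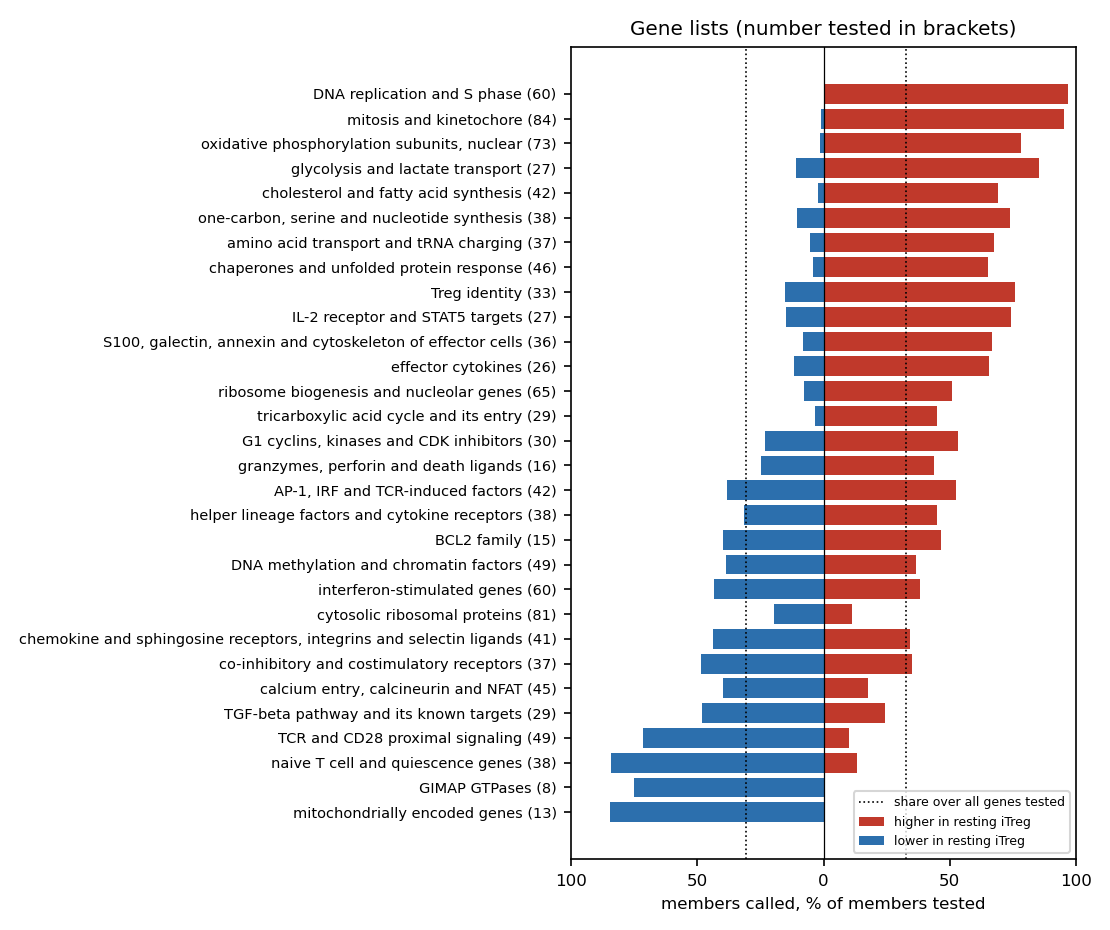
Share of the members tested in each gene list (y axis, number tested in brackets) that were called higher (red, to the right) or lower (blue, to the left) in resting iTregs, as a percentage of members tested (x axis); dotted lines give the shares over all genes tested, 32.8% higher and 30.8% lower. The cell cycle lists lie at the top with 96.7% and 95.2% of members higher, and naive genes, TCR signaling, GIMAP and mitochondrially encoded genes at the bottom.

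The median log2 difference of the other lists can be read against 0.02 over all genes tested. Among metabolic lists the median was 1.21 for cholesterol and fatty acid synthesis, 0.76 for amino acid transport, 1.07 for nuclear subunits of oxidative phosphorylation and 0.37 for the tricarboxylic acid cycle. Chaperones had 1.06, ribosome biogenesis 0.52, ribosomal proteins -0.24 and mitochondrially encoded genes -0.84. Effector cytokines had 1.74, which was 1.00 under quantile normalization, 0.95 with a pseudocount of 5 and 1.13 with no filter. The S100 and galectin list had 1.07, and that of AP-1, IRF and TCR-induced factors had 0.81. The BCL2 family had 0.79, G1 regulators 0.71, the granzyme list 0.43 (0.24 with at least 100 normalized counts) and helper lineage genes 0.12. Chromatin factors had -0.04, calcium and NFAT genes -0.21, co-receptors -0.33, migration receptors -0.35 and GIMAP genes -1.69. Under quantile normalization helper lineage genes had 0.06, chromatin factors -0.13, calcium and NFAT genes -0.33 and migration receptors -0.59. Of the 10 T cell identity genes, 2 were higher and 7 lower, with a median of -0.61 and summed levels of 46495 to 50616 normalized counts in iTregs and 62849 to 64256 in Tconvs.

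Markers of other cell types were low in both groups or belonged to genes that T cells use as well. Among B cell markers 3 of 9 were at 0 in all 6 libraries, and the list summed to 56.9 to 63.7 normalized counts in iTregs and 27.2 to 38.1 in Tconvs. Of the 3 tested, 2 were higher and 1 was lower. *Ebf1*, a B cell factor, stood at 12.6, 22.2 and 33.4 in iTregs with no read in Tconvs. Of 18 myeloid and dendritic cell markers in the table, 15 had too few counts to be tested, 1 was higher and 2 were lower. *Lyz2* and *Csf1r* were at 0 in all iTreg libraries and under 9 normalized counts in Tconvs, and the sums of 1492 to 1613 in iTregs and 929 to 1002 in Tconvs were nearly all from *Cst3*. The markers of CD8 T cells, NK cells and gamma-delta T cells summed to 225 to 291 in iTregs and 794 to 799 in Tconvs, with 1 of 6 tested higher and 4 lower. *Klrd1*, an NK receptor chain, was at 24.2, 31.3 and 30.4 against 389, 399.6 and 400.2, *Klrb1c* at 0, 0 and 0 against 30.9, 20.6 and 16.7 and *Cd8a* at 4.22, 5.04 and 10.6 against 3.09, 3.75 and 0.878. *Klrd1* and *Klrb1c* moved in the same direction as *Gzmk*, *Ccl5*, *Prf1* and *Cxcr6*, which such cells and memory T cells express, and their part in these falls was not tested. CD4 T cells were enriched by kit and sorted before use, and how many such cells remained was not measured. Red cell and platelet markers summed to at most 38.1 normalized counts in any library, with 4 of 10 at 0 in all 6. Of 12 stromal and endothelial markers 7 were at 0 in all 6 libraries, *Pecam1*, which naive T cells also carry, was at 594, 612 and 823 against 3129, 3081 and 3118, and *Epcam* at 124, 122 and 76.6 against 15.4, 8.44 and 14.0.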

How the data were processed

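RNA-seq libraries were made by a modified SMART-seq2 protocol from sorted live cells. Per the labels and methods, the authors trimmed reads with cutadapt 1.18, aligned them with STAR 2.5.3 to mm10, quantified genes with RSEM 1.3.0 and normalized with DESeq2 1.26. The deposited signal is a gene's count divided by 1 size factor per library, and every value was a whole multiple of what 1 read is worth, within a tolerance of 0.01 reads. Such scaling removes differences in total RNA per cell, and RSEM can split reads among near copies of a gene.

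Genes that reached 10 normalized counts in 3 or more of 15 RNA-seq libraries (5 groups, which share the estimate of the spread) were tested with limma 3.58.1 in R 4.3.3, with a trend, on log2 of the normalized count plus 1. P-values were adjusted by Benjamini-Hochberg over all 11495 genes, and the thresholds of 0.05 and 0.5 follow the study's methods. The exact test of 3 against 3 libraries for a single gene cannot go below 0.1 (two-sided), so it was not used. Scripts were tested on simulated data. Alternatives were edgeR 4.0.16 and DESeq2 1.42.0 on recovered reads, other normalizations, filters, pseudocounts and thresholds, the 6 libraries alone, a replicate block and leaving out each replicate. Members, the 36 gene lists and the genes named were chosen with earlier results of these data known. Named were key members of each list, up to 3 further members with the largest rise and fall, and the 10 largest rises and falls over all genes with a group mean of at least 100; other members named, among them those not called, were picked after their values were seen. Coordinates are of GRCm38, and promoters are of RefSeq (GRCm38.p6), with which 79.3% of the genes tested were matched. ATAC-seq and CUT&Tag samples were not used here, and some list members are not reported here by name. Figures were drawn with matplotlib 3.10.9.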

Additional observations from a re-analysis of the deposited data

How the results depend on the processing

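The count of genes called, 7314, stayed within 1.5 times under every alternative except 1, a log2 threshold of 1 in place of 0.5, which by construction left 4781 genes (2593 higher and 2188 lower). Leaving out 1 library at a time gave 6922 to 7166 genes, and 6337 genes kept their call and direction in all 6 such fits. edgeR gave 7371 genes and DESeq2 7278. Quantile normalization shifted the balance to 3308 higher and 4045 lower. With the replicate number as a block, 7290 genes were called (3759 higher and 3531 lower). Same-numbered libraries of both groups correlated in their deviations at 0.0387, 0.0908 and 0.159, and libraries of unlike numbers at -0.113 to 0.0274. For each library the same number thus gave the highest correlation, though all were low. The libraries were not paired in the main fit, and the sources used here tie no number to a shared animal or day. Of 1152 list counts over these alternatives 1112 stayed within 1.5 times, and of the 40 outside it only 2 had started above 5. These were the effector cytokine genes called higher, which went from 17 to 11 with at least 100 normalized counts required, and the ribosomal proteins called lower, which went from 16 to 9 without iTreg replicate 3. Genes under about 3 reads per library cannot be compared at this depth.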

Other observations

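A group of genes varied between replicates in the same order in both states. Of 134 tested genes with at least 50 normalized counts in each of the 6 libraries and a range above 0.5 on the log2 scale within each group, 97 had the same order of replicate numbers in iTregs and in Tconvs. In 90 of them replicate 2 was highest and replicate 3 lowest in both groups, and 82 of these 90 had that order in activated Tconvs as well. The genes were selected after the data had been seen, and the cause was not tested.

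*Xbp1*, a factor of the unfolded protein response, was at 2566, 4321 and 1500.1 normalized counts in resting iTregs, at 318, 390.2 and 225 in resting Tconvs and at 2307, 3375 and 1300 in activated Tconvs. *Hif1a*, the hypoxia factor that drives glycolysis, was at 3982, 6156 and 3759.6 in resting iTregs and at 1235, 1351 and 888 in resting Tconvs. *Kcnn4*, the calcium-activated potassium channel of T cells, was at 909, 1757 and 546 against 1127, 1409.7 and 858, with overlapping groups. *Hspa4*, a chaperone of the HSP110 family, was at 1814, 3142 and 1049 against 1189.9, 1338 and 707. Its adjusted p by limma was 0.0654 without and 0.0172 with the replicate number as a block. Of the 90 genes 23 were called between resting iTregs and resting Tconvs, against 63.6% of all genes tested. They were picked for a wide range within each group, so this lower share is not a result about them.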
